A study of Homo sapiens with 87 samples.

Results

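Clones 2878-4 and 2878-6 are HAP1 lines that carry the same knockout, of SMARCA4, and the comparison asked which genes differed between them. HAP1 is an established human line of leukaemic origin with a mostly single set of chromosomes. Each clone was sequenced in 3 libraries, so 6 of the 87 samples of the series were compared, chosen by the gene and clone named in their labels. The study measured poly-A RNA in HAP1 cells lacking single subunits of the BAF chromatin-remodelling complex, with 3 libraries per clone, beside 3 libraries of unedited wild-type HAP1. The labels do not say how the gene was disrupted or that libraries of a clone came from separate cultures, so p-values measure only the spread between these libraries. Each knockout line is 1 clone, and the effect of losing the gene cannot be told apart from what was particular to the founding cell. Further groups used were the ARID1A knockout clones 618-10 and 618-3 (3 libraries each) and the other knockout clones of the same table. From a separate table came 2 libraries of a SMARCA4 knockout and 2 of wild type, both under a control knockdown. That table holds 12 libraries in 6 groups. Its other groups carried an ARID2 knockout or a knockdown of SMARCA4, ARID2 or both, and entered its fit only. The labels do not name the clone of that SMARCA4 knockout.

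BAF, also called SWI/SNF, is a complex of many subunits that slides or evicts nucleosomes and so opens enhancers and promoters to transcription factors. SMARCA4 (BRG1) and SMARCA2 (BRM) are its alternative ATPase engines, and a complex contains only one of them. Cells that lose SMARCA4 commonly depend on SMARCA2, and many developmental regulators and matrix genes are known targets of the complex.

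The targeted transcript was reduced alike in both clones. SMARCA4 had estimated counts of 218, 375 and 231 in 2878-4 and of 243, 319 and 332 in 2878-6, against 4722, 5816 and 5134 in wild type. The clones overlapped with each other and lay far below wild type, at 5.33% and 5.81% of its mean in CPM, the usual unit of read counts scaled to library total. The difference between the clones was 0.11 ± 0.15 on the log2 scale (SE, 3 libraries per clone; adjusted p = 0.892, edgeR quasi-likelihood test with Benjamini-Hochberg adjustment), and its sign turned to -0.04 without replicate 3 of 2878-4. SMARCA2, the alternative ATPase, had 35.2, 44.4 and 67.0 CPM in 2878-4 and 32.3, 40.1 and 27.5 CPM in 2878-6, which overlap. Its wild-type libraries held 27.1, 17.0 and 22.8 CPM. The clones differed in SMARCA2 by -0.57 ± 0.20 (log2, 2878-6 minus 2878-4; adjusted p = 0.128). Among the 30 BAF subunit genes tested, edgeR and DESeq2 both called 0, 3 had an unadjusted p under 0.05, and the median log2 difference was -0.002.

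Between the clones, 299 of 16159 genes tested (1.85%) passed an adjusted p of 0.05 with a log2 fold change of at least 1 in either direction, which is what "called" means below. Of these, 172 (1.06% of genes tested) were higher in 2878-6 and 127 (0.786%) were higher in 2878-4. The median log2 difference of all genes was -0.001. The called genes were mostly expressed at low levels: their median was 3.41 CPM in the higher clone, against 18.3 CPM for all genes tested, and 190 stayed under 5 CPM in both clones. The differences were nevertheless large for many, with 111 genes past 2 on the log2 scale and 23 past 4. In 295 of the 299 the libraries of the clones did not overlap. The call itself favours such separation, and the share over all genes was not counted, so this is a description only. Library pairs within a clone correlated at 0.993 to 0.995 across genes (Pearson, log2 of CPM plus 1) and pairs between clones at 0.988 to 0.992, where genes are not independent replicates.

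**Figure D1:**
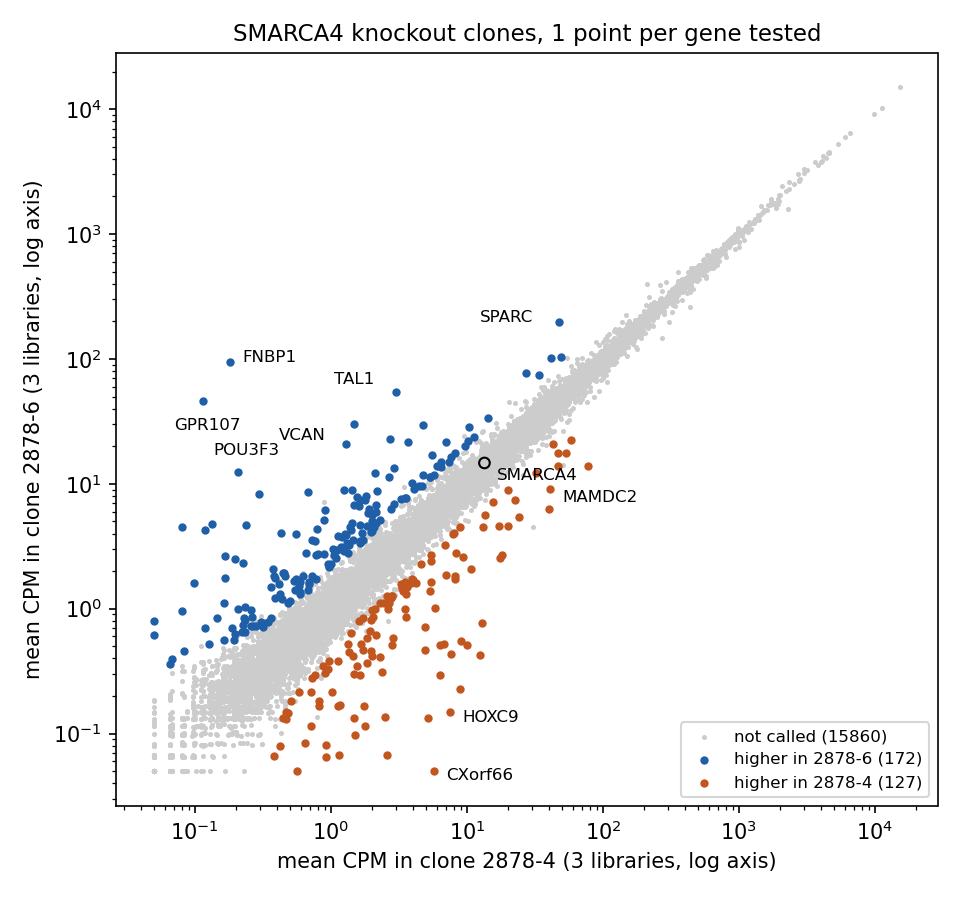
Mean CPM of each tested gene in clone 2878-4 (horizontal, log axis) and clone 2878-6 (vertical, log axis), 3 libraries each; coloured points are the 172 genes called higher in 2878-6 and the 127 called higher in 2878-4. FNBP1 and GPR107 lie farthest above the diagonal and CXorf66 farthest below it, while SMARCA4 (open circle) lies on it.

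The largest differences were in a pair of adjacent genes, FNBP1 and GPR107. FNBP1 encodes a membrane-bending F-BAR protein of endocytosis that binds formins (its BAR domain is unrelated to the BAF complex), and GPR107 encodes a membrane protein of the Golgi and trafficking route. FNBP1 had 3, 2 and 6 counts in 2878-4, and 1745, 1823 and 2177 in 2878-6. GPR107 had 2, 2 and 3 counts in 2878-4, and 775, 869 and 1174 in 2878-6. In 2878-4 both genes were thus close to the lowest value of the deposited table, which is 1, whereas 2878-6 and wild type (76.9 ± 3.29 CPM for FNBP1 and 45.1 ± 16.2 CPM for GPR107, SD, n = 3) held moderate levels. FNBP1 differed by 8.97 on the log2 scale (edgeR adjusted p = 1.84e-44, and 4.46e-08 with the 6 libraries of the clones fitted alone). With each library left out in turn, its difference ran from 8.64 to 9.45. No SE is given for it, because the fitted SE was smaller than counting error at so few counts in 2878-4. For GPR107 the ratio of summed counts per total was 403-fold, with a 95% exact interval of 196 to 1004 that covers counting error only (edgeR adjusted p = 6.04e-30). Against wild type, FNBP1 was -8.66 in 2878-4 (adjusted p = 8.13e-44) and 0.31 ± 0.09 in 2878-6 (SE, adjusted p = 0.00558, under the fold threshold).

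The genes around this pair were not called. The plot of the neighbourhood shows 8 tested genes on each side in RefSeq order (GRCh38.p14). None of those 16 was called by edgeR or DESeq2, 3 had an unadjusted p under 0.05, and their log2 differences ran from -0.51 (USP20, a deubiquitinase and the nearest tested gene beyond FNBP1, adjusted p = 0.116) to 0.68 (ABL1, a tyrosine kinase, adjusted p = 0.0922), both named after their values were seen. Neither gene of the pair was called against wild type in any of the other 22 knockout clones of the table, whose group means were at least 58.6 CPM for FNBP1 and 34.5 CPM for GPR107. The SMARCA4 knockout of the separate table held 66.4 and 59.6 CPM of FNBP1, and its wild type 43.9 and 56.5 CPM. For GPR107 the same libraries held 40.9 and 51.8 CPM, and 32.7 and 38.6 CPM.

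**Figure D2:**
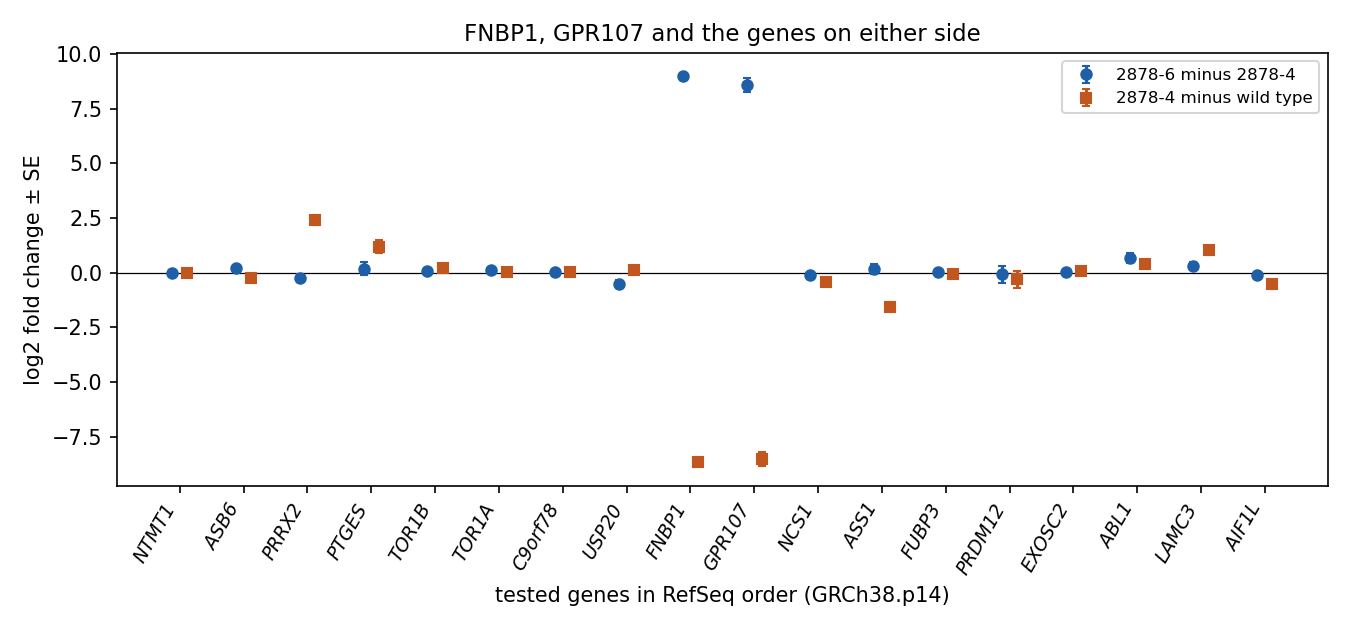
Log2 fold change with its SE for FNBP1, GPR107 and 8 tested genes on either side in RefSeq gene order, for 2878-6 minus 2878-4 (circles) and 2878-4 minus wild type (squares). Only FNBP1 and GPR107 were called between the clones, and the other 16 lay between -0.51 and 0.68. For FNBP1 and GPR107 the drawn SE is smaller than counting error, as 2878-4 held few counts.

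FNBP1 and GPR107 are transcribed away from each other, and the promoter windows that RefSeq gives for them (250 bases before to 50 after the start, GRCh38.p14) share 126 bases. Their start sites are 27 bases apart, at 130053879 on the minus strand and 130053906 on the plus strand of chromosome 9. Both windows are shown because a single stretch of DNA serves as the promoter region of both genes that were near the minimum. Each is written 5′ to 3′ on the strand of its gene, and capitals mark the bases that lie in both windows.

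FNBP1, chr9:130053830-130054129, minus strand: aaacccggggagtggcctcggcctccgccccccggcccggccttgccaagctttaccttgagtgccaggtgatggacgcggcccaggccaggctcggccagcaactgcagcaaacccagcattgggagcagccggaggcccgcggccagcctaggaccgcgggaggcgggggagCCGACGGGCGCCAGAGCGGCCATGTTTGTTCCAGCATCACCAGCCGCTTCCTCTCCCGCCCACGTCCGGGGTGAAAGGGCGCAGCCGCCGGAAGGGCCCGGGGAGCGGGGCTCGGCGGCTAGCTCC
GPR107, chr9:130053656-130053955, plus strand: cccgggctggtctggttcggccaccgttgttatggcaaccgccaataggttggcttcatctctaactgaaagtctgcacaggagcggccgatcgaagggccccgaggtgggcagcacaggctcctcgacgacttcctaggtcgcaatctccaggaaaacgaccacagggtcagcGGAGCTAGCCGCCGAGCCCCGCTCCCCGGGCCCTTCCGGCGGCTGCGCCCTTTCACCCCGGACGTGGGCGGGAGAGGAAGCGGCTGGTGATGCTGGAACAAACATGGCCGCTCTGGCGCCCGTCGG

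The shared stretch lies at the end of each window and holds both start sites. The FNBP1 window contains 29 CG pairs and the GPR107 window 28. Head-to-head starts within 300 bases were found for 1714 pairs among the 27305 genes with a window in the table. No methylation, accessibility or DNA sequence of the clones was analysed here.

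Transcription factors of development made up another group. Of 108 such genes tested, 8 were called higher in 2878-6 and 3 higher in 2878-4, which is 10.2% against 1.85% of all genes; their median log2 difference was 0.048. POU3F3, a POU-domain factor of neural development, had 0.112, 0.232 and 0.280 CPM in 2878-4, and 12.0, 13.1 and 12.4 CPM in 2878-6. The clones were far apart, and wild type was higher still at 37.0 ± 1.81 CPM (SD, n = 3). The difference was 5.81 (adjusted p = 4.16e-41), and ran from 5.56 to 6.07 with each library left out in turn. POU3F3 was not called in any of the other 22 clones, where its lowest group mean was 23.3 CPM. FOXF1, a forkhead factor of mesenchyme, had 1, 2 and 2 counts in 2878-4 and 90, 95 and 89 in 2878-6, a 54.9-fold ratio with an exact 95% interval of 23.2 to 170. Its relative FOXF2, encoded on another chromosome, had 1.18, 1.30 and 1.26 CPM in 2878-4, and 8.46, 9.68 and 8.57 CPM in 2878-6 (2.81, adjusted p = 8.33e-25). For both forkhead genes the order was 2878-4 below 2878-6 below wild type, without overlap. The pioneer factor FOXA1 differed by 1.77 ± 0.22 (adjusted p = 1.88e-08) and had the same order, at 1.12 ± 0.568, 3.83 ± 0.254 and 37.3 ± 5.71 CPM. In limma on the deposited log2 TPM values the FOXA1 difference had an adjusted p of 0.0753.

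Other members higher in 2878-6 were IRX6 (1.60) and GATA5 (1.58), both named after their values were seen, and the kidney and eye factor PAX2 (1.51 on the log2 scale). The PAX2 call was lost without replicate 2 of 2878-6, where the difference was 1.09 (adjusted p = 0.0572). In the opposite direction, BARX1, a homeobox factor of stomach and jaw, had 32, 25 and 34 counts in 2878-4 and 1, 2 and 3 in 2878-6, a 15.1-fold ratio (exact 95% interval 6.69 to 42.3).

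ALX4, a paired-type homeobox factor of skull and limb, stood outside the list but among the largest differences. It had 25, 36 and 29 counts in 2878-4, 556, 668 and 582 in 2878-6, and 618, 776 and 832 in wild type. In CPM the clones were far apart, and each library of 2878-6 lay below the 34.6, 34.9 and 37.6 CPM of wild type. The difference between the clones was 4.31 (adjusted p = 1.07e-34).

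Among 37 HOX genes tested, HOXC9 stood out. It had 164, 137 and 151 counts in 2878-4, 3 in every library of 2878-6, and 7, 7 and 8 in wild type. The gene was thus high in 2878-4 alone of these groups, with a 50.1-fold ratio between the clones (exact 95% interval 26.2 to 110, edgeR adjusted p = 1.15e-24). Elsewhere, HOXC9 was called above wild type in 10 of the other 22 knockout clones and below it in 4. Its highest group mean among them was 6.93 CPM, beside 7.54 CPM in 2878-4. HOXB8 and HOXB5 were called higher in 2878-6 at 1.45 and 1.01, but HOXB8 lost its call when any 1 of the 6 libraries was left out (adjusted p from 0.0512 to 0.235) and HOXB5 in 5 of the 6 cases (0.0477 to 0.232). The median of the HOX genes was -0.063.

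TAL1, a basic helix-loop-helix factor of blood stem cells and red cells, was the most changed of 32 blood-lineage genes tested. It had 3.15, 2.69 and 3.22 CPM in 2878-4, 51.9, 60.8 and 49.5 CPM in 2878-6, and 20.1, 12.4 and 15.9 CPM in wild type. The 3 groups did not overlap, and wild type lay between the clones. The clones differed by 4.15 ± 0.18 (adjusted p = 1.79e-26). RUNX1, another blood factor, went the other way at -1.10 ± 0.24 (adjusted p = 0.00168), a call that was lost without replicate 3 of 2878-4 (-0.89, adjusted p = 0.052). Of the 32, edgeR called these 2 (6.25%) and DESeq2 called 3. The summed level of the list ran from 799 to 859 CPM in 2878-4 and from 825 to 894 CPM in 2878-6. SPI1, MPO and HBB, defining genes of myeloid and red cells, were at the lowest value in every library of both clones and of wild type.

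**Figure D3:**
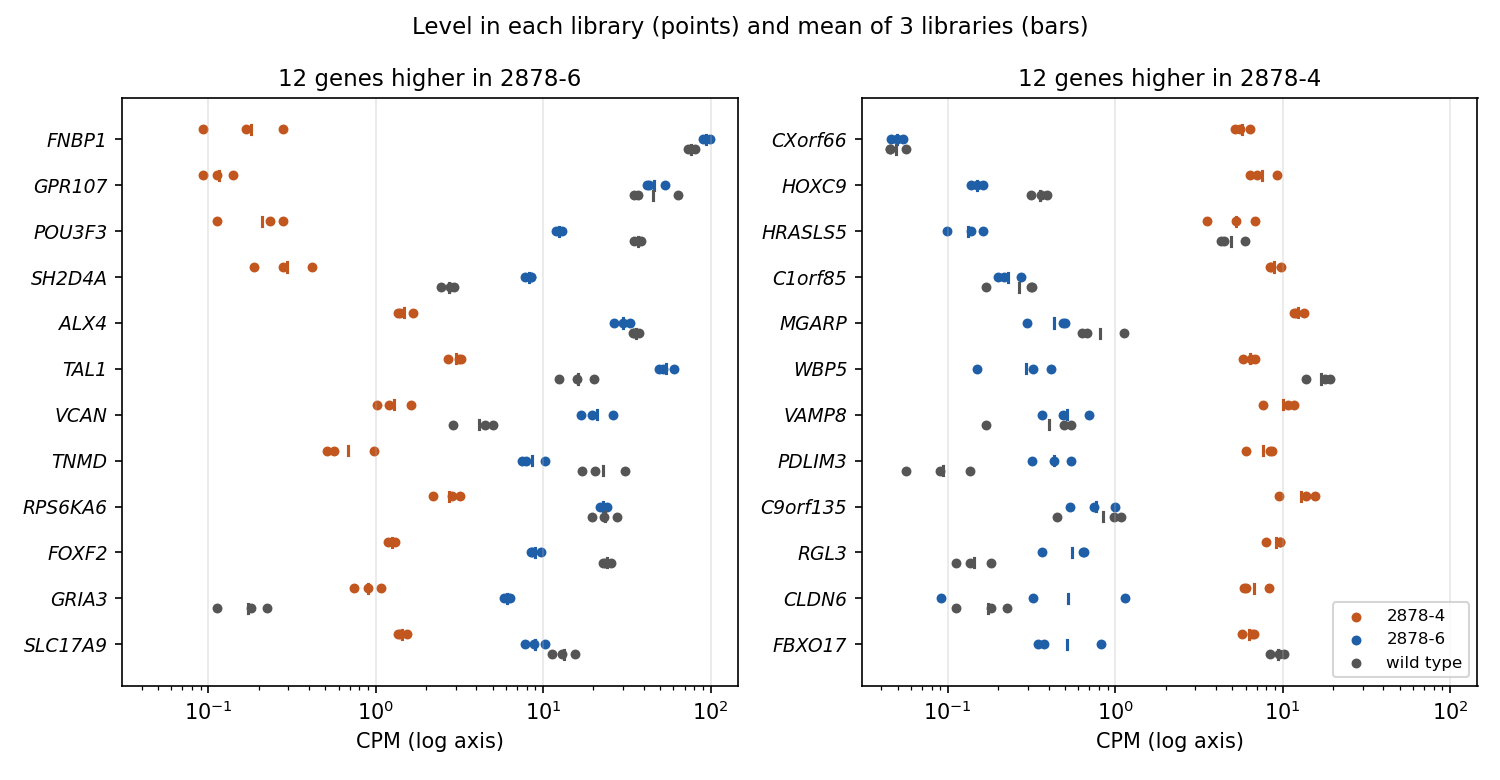
CPM in each library (points, log axis) and the mean of 3 libraries (bars) for the 12 largest called differences in each direction among genes averaging 5 CPM or more where they were higher; 2878-4, 2878-6 and wild type are drawn in separate colours. Wild type sits beside 2878-6 for FNBP1 and GPR107, between the clones for TAL1, VCAN and SH2D4A, and beside 2878-4 for HRASLS5.

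Matrix glycoprotein and proteoglycan genes were called mostly towards 2878-6, with 5 of 40 tested members higher there and 1 lower (15% called, against 1.85% of all genes; median 0.137). VCAN, the proteoglycan versican, had 1.01, 1.21 and 1.63 CPM in 2878-4, 16.9, 26.1 and 19.5 CPM in 2878-6, and 4.99, 2.88 and 4.52 CPM in wild type. As for TAL1, the groups did not overlap and wild type lay between the clones (3.99 ± 0.30 between them, adjusted p = 5.98e-16). SPARC, a collagen-binding glycoprotein, was abundant in both clones, with 33.3, 47.0 and 61.9 CPM in 2878-4, and 172, 203 and 215 CPM in 2878-6 (2.04 ± 0.14, adjusted p = 4.01e-17). RELN, the secreted guidance protein reelin, differed by 3.34 ± 0.62 (adjusted p = 1.36e-04), although both clones (0.168 ± 0.0679 and 1.77 ± 0.644 CPM) were far below the 13.9 ± 1.56 CPM of wild type.

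CTGF, a matricellular protein, differed by 1.26 ± 0.31 (adjusted p = 0.00624) and was above wild type in both clones. THBS2, a thrombospondin named after its values were seen, differed by 1.19 ± 0.28 (adjusted p = 0.00424). Both clones were far below wild type in THBS2, at 0.967 ± 0.132 CPM in 2878-4 and 2.24 ± 0.17 CPM in 2878-6, against 62.1 ± 4.19 CPM. Of 23 collagen chains, only COL4A4 was called (-1.12), and not without replicate 3 of 2878-4 (-0.81). TNMD, tenomodulin of tendon and ligament, lay outside these lists and had 0.562, 0.511 and 0.980 CPM in 2878-4, and 7.44, 10.3 and 7.93 CPM in 2878-6 (3.60 ± 0.28, adjusted p = 1.93e-15).

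Protocadherins, cadherin-like adhesion proteins best known from neurons, were called in 1 direction: 6 of 40 tested were higher in 2878-6 (15%, against 1.06% of all genes) and 0 higher in 2878-4 (0.786% of all genes), with a median of 0.178. PCDH19 differed by 2.42 ± 0.34 (adjusted p = 2.11e-07), PCDHB5 by 2.05 ± 0.19 (adjusted p = 6.28e-13) and PCDH7 by 1.21 ± 0.21 (adjusted p = 2.85e-05). PCDHB2 (1.23), and PCDH17 (1.16) and PCDH20 (1.05), which were named after their values were seen, were the other members. PCDHB2 lost its call without replicate 2 of 2878-4 (0.96) and PCDH20 in 3 of the 6 fits that left out a library, with differences down to 0.96. The clustered PCDHB genes are close copies of each other, so the division of their reads is uncertain. The separate cadherin CDH3 was also higher in 2878-6 (1.76 ± 0.31, adjusted p = 6.06e-05), though with an adjusted p of 0.0677 in limma on the deposited log2 TPM values.

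Among genes of neurons, GRIA3 and SCN9A led. GRIA3, an AMPA-type glutamate receptor subunit, had 0.899, 0.743 and 1.07 CPM in 2878-4, 6.20, 6.35 and 5.83 CPM in 2878-6, and 0.112, 0.225 and 0.181 CPM in wild type. It was thus above wild type in both clones and highest in 2878-6 (2.74 ± 0.21 between the clones, adjusted p = 2.01e-15). SCN9A, a voltage-gated sodium channel, differed by 2.30 ± 0.21 (adjusted p = 6.28e-13) and was below wild type in both. The potassium channel genes KCNK2 (5.26-fold higher in 2878-6, exact 95% interval 1.77 to 21.1) and KCNJ8 (-1.15 on the log2 scale) were also called, each losing its call in 4 of the 6 fits without a library, with adjusted p-values up to 0.333 and 0.295. KCNK2 was near the minimum in both clones but at 34.8 ± 1.36 CPM in wild type. In all, edgeR called 3 of 44 channel and receptor genes higher in 2878-6 and 1 lower (9.09%, against 1.85% of all genes), and DESeq2 called 2.

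Of 69 genes of neural adhesion and axon guidance, 3 were called higher in 2878-6 and 1 lower by edgeR (5.8%, against 1.85% of all genes), and DESeq2 called 2. CNTN4, a contactin, differed by 2.04 ± 0.41 (adjusted p = 5.43e-04), and by 2.75 without replicate 3 of 2878-4. SLIT2, a secreted repellent of axons, was higher in 2878-4, with 5.34, 8.73 and 7.09 CPM there against 1.67, 2.18 and 1.73 CPM in 2878-6 (-1.94 ± 0.18, adjusted p = 7.47e-13). SLIT1 (1.42) lost its call in 3 of the 6 fits without a library (adjusted p up to 0.202), and NFASC (1.16) in all 6 (0.0503 to 0.24).

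Signalling genes were called in small numbers, mostly towards 2878-6. Of 39 genes of the TGF-beta and BMP pathways (7.69% called, 1.85% of all genes), 3 were called higher in 2878-6, and 0 were called higher in 2878-4 by either edgeR or DESeq2. The 3 were the BMP antagonist CHRDL1 (2.21 ± 0.31, adjusted p = 3.69e-07), the activin antagonist FST (1.20 ± 0.21, adjusted p = 5.41e-05) and the BMP target ID4 (2.18, adjusted p = 9.46e-07). CHRDL1 was below wild type in both clones, at 1.47 ± 0.531 CPM in 2878-4 and 6.81 ± 1.86 CPM in 2878-6, against 44.5 ± 12.0 CPM. With the 6 libraries of the clones fitted alone, ID4 had an adjusted p of 0.0631, and without replicate 3 of 2878-4 it was at 2.90. FST had 5.28, 5.94 and 8.12 CPM in 2878-4, 17.5, 12.4 and 14.9 CPM in 2878-6, and under 0.3 CPM in each wild-type library. Of 37 ERK-responsive genes, 4 were called higher in 2878-6 (10.8%, against 1.06% of all genes) and 0 higher in 2878-4 by edgeR (0.786% of all genes). The 4 were ETV1, KLF4, ETV5 and DUSP4, between 1.02 and 1.32 on the log2 scale. Their list had 12 members at an unadjusted p under 0.05, 4 calls by DESeq2 and a median of 0.214. Each of these 4 calls was lost without at least 1 library. Without replicate 3 of 2878-6, ETV1 was at 0.88, ETV5 at 0.94 and DUSP4 at 0.97, and without its replicate 1 KLF4 was at 0.86. DUSP4 was also lost without replicate 3 of 2878-4 (0.91) and ETV5 without its replicate 1 (0.88).

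RPS6KA6, a ribosomal S6 kinase that acts below ERK, had 2.19, 3.20 and 2.85 CPM in 2878-4, and 22.8, 24.0 and 21.7 CPM in 2878-6. The latter overlapped with wild type at 27.5, 23.1 and 19.5 CPM, and the clones differed by 3.03 ± 0.16 (adjusted p = 6.26e-23). SLC17A9, the vesicular nucleotide transporter, showed a similar order at 1.43 ± 0.0925, 8.98 ± 1.26 and 13.2 ± 2.06 CPM (2.63 ± 0.20, adjusted p = 3.69e-16). SH2D4A, an SH2-domain adaptor, had 0.281, 0.418 and 0.187 CPM in 2878-4, 8.46, 7.84 and 8.43 CPM in 2878-6, and 2.46, 2.79 and 2.94 CPM in wild type (4.76 between the clones, adjusted p = 1.86e-21).

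Several genes were nearly confined to 2878-4 among these 3 groups. CXorf66 had 99, 112 and 137 counts in 2878-4 and the lowest value, 1, in every library of 2878-6 and of wild type. It was at least 38.4-fold higher in 2878-4 than in 2878-6, taking 3 counts per library as the floor, and edgeR gave an adjusted p of 1.06e-40. No other named gene was at the lowest value in all libraries of 1 clone and at 5 CPM or more in the other. Its highest group mean in the other 22 clones was 0.0552 CPM.

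C1orf85, a lysosomal membrane protein gene, had 8.37, 9.71 and 8.54 CPM in 2878-4, and 0.216, 0.199 and 0.273 CPM in 2878-6, the latter overlapping with wild type (-5.25 ± 0.36, adjusted p = 9.06e-18). VAMP8, a SNARE protein of endosomes and secretory granules, had 10.8, 11.8 and 7.65 CPM in 2878-4, and 0.485, 0.695 and 0.364 CPM in 2878-6 (-4.29 ± 0.32, adjusted p = 1.36e-16). MGARP, a mitochondrial protein gene, differed by -4.85 ± 0.39 (adjusted p = 3.18e-15), and PDLIM3, which binds actinin at the cytoskeleton, by -4.16 ± 0.26 (adjusted p = 1.12e-19). CLDN6, a tight junction claudin of embryonic epithelium, had 8.32, 5.90 and 6.06 CPM in 2878-4. Its 2878-6 libraries spread widely, at 0.324, 1.14 and 0.0911 CPM, yet stayed below every 2878-4 library (-3.72 ± 0.37, adjusted p = 1.03e-11). Without replicate 2 of 2878-6, CLDN6 was at -5.05. RGL3, a Ral exchange factor (-4.05), and C9orf135 (-4.07) showed the same order, with means of 9.07 ± 1.02 and 12.9 ± 3.12 CPM in 2878-4, and of 0.552 ± 0.163 and 0.762 ± 0.232 CPM in 2878-6. Not all of these genes were low in the other 22 clones. The highest group mean there was 19.1 CPM for C1orf85, 12.65 CPM for C9orf135, 5.23 CPM for VAMP8 and 5.12 CPM for MGARP. For RGL3, PDLIM3 and CLDN6 it was 0.847, 0.519 and 0.470 CPM.

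A second kind of gene higher in 2878-4 was present in wild type and near the minimum in 2878-6. HRASLS5, a phospholipid-modifying enzyme gene, had 63, 148 and 113 counts in 2878-4, 3, 2 and 3 in 2878-6, and 76, 133 and 99 in wild type. The ratio between the clones was 40.4-fold (exact 95% interval 20.3 to 94.4), and 2878-4 overlapped with wild type. FBXO17, an F-box substrate receptor, was also lowest in 2878-6, but its wild-type libraries all lay above those of 2878-4, with 6.33 ± 0.579, 0.515 ± 0.265 and 9.37 ± 0.911 CPM in 2878-4, 2878-6 and wild type (-3.59 ± 0.29, adjusted p = 5.97e-15).

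WBP5 and TCEAL8, X-linked genes of the TCEAL family of small nuclear proteins related to a transcription elongation factor, also belonged to this kind. WBP5 (TCEAL9 in RefSeq) had 6.86, 6.50 and 5.78 CPM in 2878-4, 0.324, 0.149 and 0.410 CPM in 2878-6, and 17.8, 13.7 and 19.1 CPM in wild type (-4.41, adjusted p = 1.63e-23). TCEAL8 had 25, 28 and 38 counts in 2878-4, 3, 3 and 2 in 2878-6, and 63, 96 and 86 in wild type, a ratio between the clones of 11.4-fold (exact 95% interval 5.52 to 27.1). For both genes the order was 2878-6 below 2878-4 below wild type, without overlap. Of 16 genes of the TCEAL, BEX and neighbouring ARMCX families tested, 3 were called higher in 2878-4 and 0 higher in 2878-6 (18.8%, against 0.786% and 1.06% of all genes; median 0.095). The third was BEX2 (-1.06), whose call was lost without replicate 3 of 2878-4 (-0.99) and without replicates 1 or 2 of 2878-6 (-0.91 and -0.92). The abundant relatives NGFRAP1 (0.19 ± 0.08, adjusted p = 0.261) and BEX4 (0.14 ± 0.09, adjusted p = 0.588) were not called, and were named after their values were seen.

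The promoter windows of WBP5 and TCEAL8 are printed because these genes, which are not adjacent, went down together and share a run of letters. Windows run from 250 bases before to 50 after the RefSeq start in GRCh38.p14, 5′ to 3′ on the strand of the gene. Capitals mark the longest run that both contain.

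WBP5, chrX:103356256-103356555, plus strand: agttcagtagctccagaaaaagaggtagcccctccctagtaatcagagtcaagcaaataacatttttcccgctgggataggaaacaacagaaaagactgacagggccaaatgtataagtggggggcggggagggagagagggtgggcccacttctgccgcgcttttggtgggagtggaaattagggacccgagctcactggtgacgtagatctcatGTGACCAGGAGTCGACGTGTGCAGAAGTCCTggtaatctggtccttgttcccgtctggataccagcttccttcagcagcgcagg
TCEAL8, chrX:103255106-103255405, minus strand: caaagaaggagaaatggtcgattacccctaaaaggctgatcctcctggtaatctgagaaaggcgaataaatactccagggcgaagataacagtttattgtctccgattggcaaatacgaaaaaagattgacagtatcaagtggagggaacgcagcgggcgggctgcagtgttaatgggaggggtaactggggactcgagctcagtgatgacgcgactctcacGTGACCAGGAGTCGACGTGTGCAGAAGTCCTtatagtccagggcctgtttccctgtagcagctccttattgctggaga

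The run is 31 bases long and ends just before the start site of WBP5 and just past that of TCEAL8. On either strand, it was found in 2 of the 27305 windows of the table (0.00732%), those of these 2 genes, and its inner 15 bases, GGAGTCGACGTGTGC, in the same 2. The genes belong to a family of copies, and such a match is a description of the letters only. TCEAL8 was called lower than wild type in 21 of the other 22 knockout clones and WBP5 in 15, with 1 and 6 called higher, so that in this table low levels of both were frequent.

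The gene lists for growth, respiration and stress held no called member (median log2 differences from -0.182 to 0.042). By edgeR and by DESeq2, 0 genes were called among 52 of replication and mitosis, 76 cytosolic ribosomal proteins, 63 of oxidative phosphorylation, 25 of cholesterol synthesis, 23 p53 targets and 37 of the integrated stress response. An unadjusted p under 0.05 was reached by 2, 5, 1, 3, 0 and 13 of them, respectively, against 11.7% of all genes. The stress list thus exceeded that share, at 35.1%, with a median of -0.182. The 40 WNT genes, 30 histone genes and 5 metallothioneins also held 0 calls by both tools, with 9, 6 and 0 at an unadjusted p under 0.05 and medians of -0.038, 0.352 and 0.134. Close copies make the division of reads among ribosomal, histone and metallothionein genes uncertain.

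Other lists held 1 or 2 calls by edgeR, against 1.06% of all genes called higher in 2878-6. Imprinted genes were called in 2 of 26 cases (7.69%), both higher in 2878-6: MKRN3 (1.95 ± 0.35, adjusted p = 8.16e-05) and DLK1 (1.20), which lost its call in 3 of the 6 fits without a library (adjusted p up to 0.136). Of 33 actin and SRF target genes (3.03% called), TAGLN was called (1.35), but not without replicate 3 of 2878-6 (adjusted p = 0.069). Of 52 interferon-stimulated and class I genes (1.92% called), OAS2 was called (1.86), and its call was lost in 3 of the 6 fits without a library (adjusted p up to 0.174). CTGF and FOXF2, given above, were the 2 called of 21 YAP targets (9.52%).

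**Figure D4:**
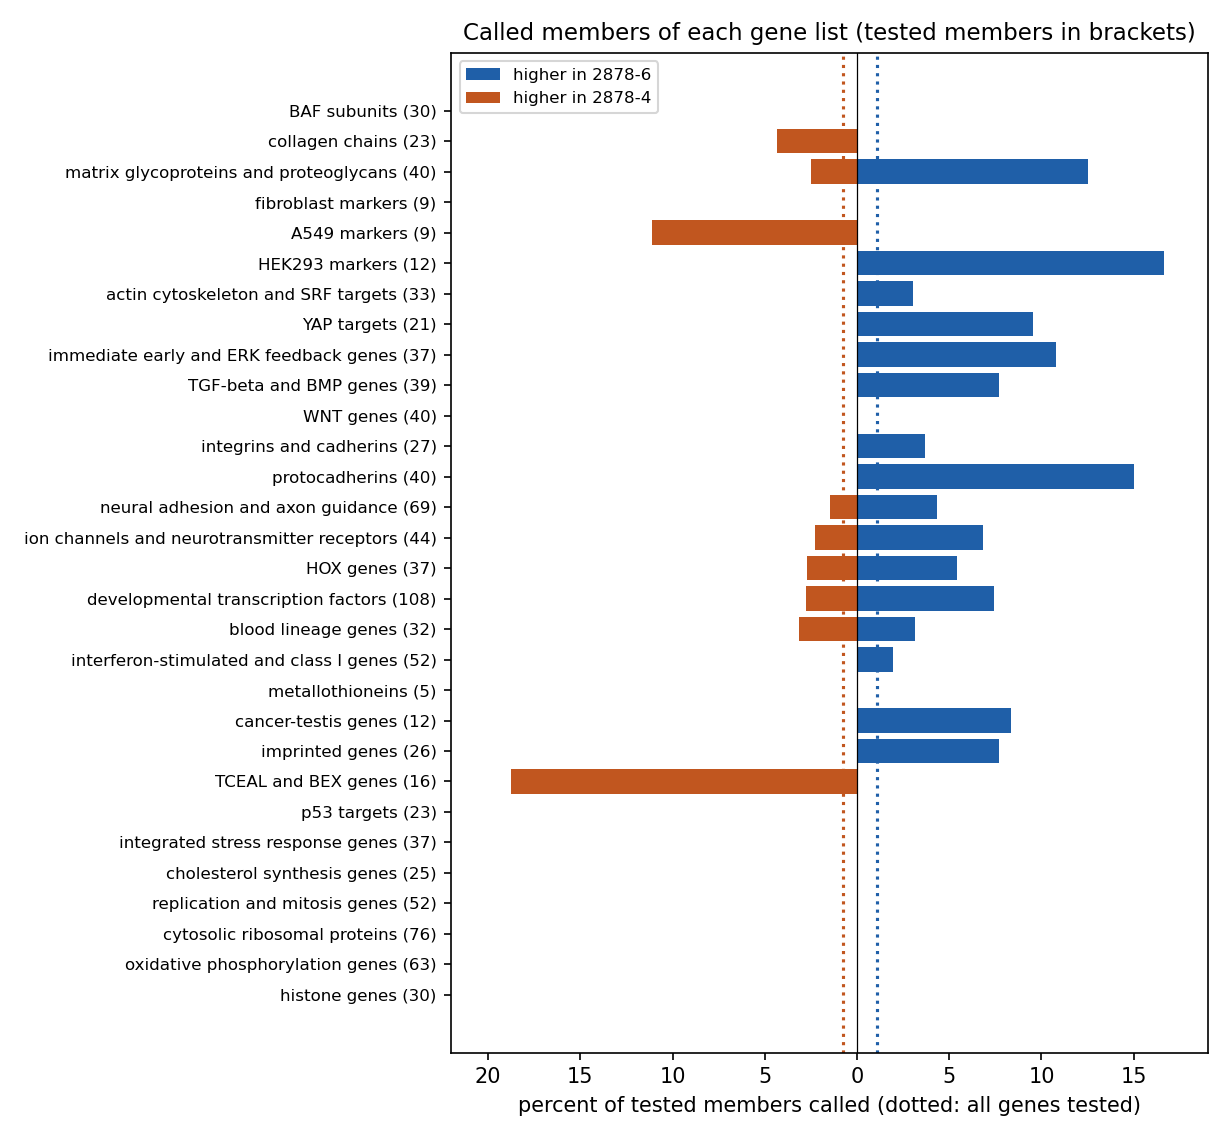
Percent of the tested members of each gene list that were called higher in 2878-6 (right) or higher in 2878-4 (left), with the number tested in brackets; dotted lines mark the share of all genes tested, 1.06% and 0.786%. Protocadherins had calls towards 2878-6 alone and TCEAL and BEX genes towards 2878-4 alone, while the growth and respiration lists had none.

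Markers of other cell types and lines were followed in the same libraries. Summed fibroblast markers overlapped, at 518 to 742 CPM in 2878-4 and 527 to 705 CPM in 2878-6, both above the 113 to 136 CPM of wild type. Of the 14 summed, FAP, PRRX1 and TWIST2 were at the lowest value in every library of both clones, and LUM in those of 2878-6. In wild type only FAP was so, and the higher sums thus do not hold for each marker. Markers of A549, a lung carcinoma line, overlapped between the clones at 297 to 381 and 296 to 315 CPM, above the 76.8 to 83.6 CPM of wild type. EPCAM, an epithelial adhesion protein among the latter, was called higher in 2878-4 (-2.82 ± 0.31, adjusted p = 2.25e-10), while the mucin gene MUC5AC was at the lowest value in every library. Markers of HEK293, an embryonic kidney line, summed to 127 to 132 CPM in 2878-4, 147 to 165 CPM in 2878-6 and 161 to 176 CPM in wild type, with PAX2 and PRAME (1.04, lost in 3 of the 6 fits without a library) called among 12. The part of these markers in the differences was not tested.

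Called genes occasionally sat side by side. RefSeq gene order was available for 14832 tested genes, among them 296 of the 299 called. Along this order 22 pairs of neighbouring tested genes were both called, 20 of them in the same direction. How many such pairs the share of called genes would give was not worked out. Some pairs had a member under 1 CPM in both clones, such as LSAMP (0.563 CPM where higher) and C15orf56 (0.423 CPM). Genes of these pairs are named here after their values were seen. PLCB1 and PLCB4, phospholipase C enzymes encoded next to each other on chromosome 20, had 3, 2 and 3 and 4, 2 and 4 counts in 2878-4, against 88, 119 and 82 and 41, 69 and 49 in 2878-6. The ratio for PLCB1 was 36.2-fold (exact 95% interval 18.1 to 84.6), and PLCB4 differed by 3.92 ± 0.43 (adjusted p = 2.59e-10). Wild type held 6.39 ± 0.847 and 2.11 ± 0.144 CPM of them, close to 2878-6. C9orf135 lay next to MAMDC2 (-2.20 ± 0.22, adjusted p = 9.78e-12), which had 41.1 ± 1.54 CPM in 2878-4, 9.07 ± 0.795 CPM in 2878-6 and 0.683 ± 0.272 CPM in wild type. PAK6 (-2.46) and PLCB2 (-2.31), with 2 called genes between them, and CHRDL1 and PAK3 (2.12) were other such groups.

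No chromosome moved as a whole. Among the 22 autosomes and the X chromosome, the median log2 difference of tested genes ran from -0.022 (chromosome 3) to 0.022 (chromosome 20). The share of genes called ran from 1.19% on chromosome 16 to 3.76% on the X chromosome, where 21 of 558 genes were called, 14 of them higher in 2878-6.

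Wild type placed the clones differently gene by gene. On mean CPM, it lay between the clones for 90 of the 299 called genes, at or above both for 98 and at or below both for 111. It was nearer to 2878-6 for 197 genes and to 2878-4 for 102. For 11 genes the clones were called in opposite directions against the same wild-type libraries. Of these, SH2D4A, TAL1 and VCAN reached 5 CPM in the higher clone: against wild type SH2D4A was at -3.16 in 2878-4 and 1.60 in 2878-6, TAL1 at -2.39 and 1.76, and VCAN at -1.64 and 2.35. Among those at lower levels, named after their values were seen, DCAF12L2, GSAP, PDE6B and SH2D2A were lower in 2878-6 and higher in 2878-4, and GAD1, JAKMIP3 and THSD7B had the reverse pattern.

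The SMARCA4 knockout libraries of the separate table, under control knockdown, were set beside each clone. They were compared with the wild type of that table in an edgeR fit of all its 12 libraries. Those libraries share the filter, the normalization and the estimate of spread. For 210 of 251 called genes tested there (83.7%), their log2 fold change was nearer to that of 2878-6 against wild type than to that of 2878-4. Among the 91 with a difference past 2 between the clones, this held for 86 (94.5%). The median distance was 0.552 to 2878-6 and 1.77 to 2878-4 over all 251. Of the 24 genes with the largest differences, 18 were tested in that table and all 18 were nearer to 2878-6. POU3F3 held 12.0 and 12.0 CPM in that knockout, beside 12.5 ± 0.544 CPM in 2878-6, and WBP5 held 0.425 and 0.198 CPM. Some genes were nearer to 2878-4, among them TAGLN, at 0.18 in that knockout against 1.10 in 2878-4 and 2.45 in 2878-6. The tables share no library, both clone values use the same wild type, and levels were not tested across tables.

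**Figure D5:**
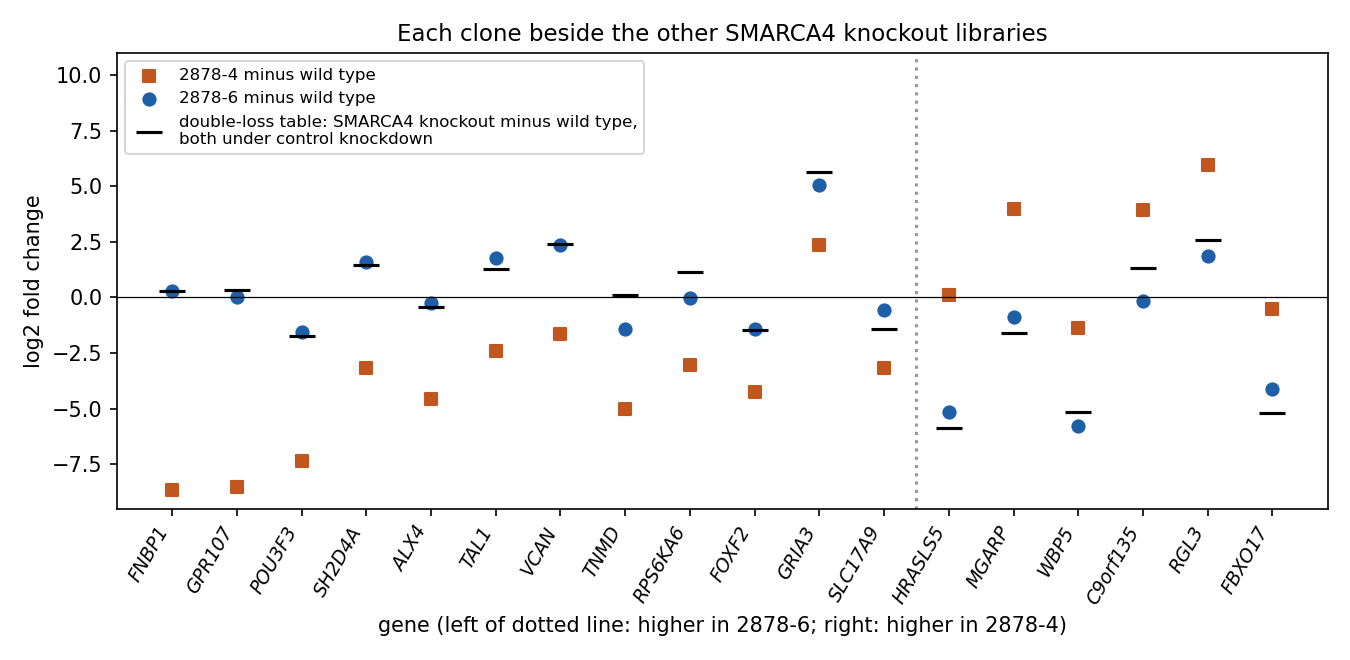
Log2 fold change against wild type in 2878-4 (squares), in 2878-6 (circles) and in the SMARCA4 knockout of the separate table under control knockdown (bars, against its own wild type) for the 18 of the 24 largest differences tested in both tables. Every bar lies nearer to the circle than to the square.

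Many of the genes that differed between the clones also differed from wild type elsewhere in the table. Of the 299, 261 (87.3%) were called against wild type in at least 1 of the other 22 knockout clones, where 22.3% of all tested genes were, and these 261 are 7.24% of the genes so called. In 10 or more of those clones the shares were 31.1% and 2.59%, and the median number of clones was 6 for the called genes and 0 for all. TAL1 was called higher than wild type in 8 of them and lower in 13, and VCAN higher in 7 and lower in 10.

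A small set was called between the SMARCA4 clones and in no other clone. Of its 38 genes, 14 reached 5 CPM in the higher clone: FNBP1, GPR107, POU3F3, FOXF2, CXorf66, CLDN6 and 8 more, named here after their values were seen. FGFBP3, a secreted FGF-binding protein, had 74.7, 74.7 and 82.8 CPM in 2878-4, and 12.1, 14.9 and 14.8 CPM in 2878-6 (-2.49 ± 0.14, adjusted p = 5.79e-21), and FGF11, an intracellular FGF homologue, went the same way (-2.13). PLEKHA7, an adherens junction protein, had 24.8, 24.4 and 23.4 CPM in 2878-4, which overlapped with wild type (26.1 ± 3.03 CPM), and 5.34, 5.80 and 5.24 CPM in 2878-6 (-2.16 ± 0.11, adjusted p = 6.62e-24). CD320, the cellular receptor for transcobalamin-bound vitamin B12 (-2.27), and FAM131A (-2.55) were also higher in 2878-4. The kinase FAM20C (1.65), the monoamine oxidase MAOA (1.61) and the splicing regulator MBNL3 (1.09) were higher in 2878-6.

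The ARID1A clones, which share no library with the SMARCA4 clones, also differed from each other, in fewer genes. By the same rule, 203 genes (1.26%) were called between 618-10 and 618-3, against 299 (1.85%) between the SMARCA4 clones. When only their own 6 libraries were fitted, the ARID1A clones had 134 calls. The same kind of fit of the SMARCA4 clones gave 132 genes higher in 2878-6 and 92 higher in 2878-4. The lists shared 49 genes, 16.4% of the SMARCA4 list and 24.1% of the ARID1A list. The largest SMARCA4-clone differences among shared genes at 5 CPM or more were in HRASLS5, MGARP, WBP5, VAMP8, C9orf135 and RGL3. Between the ARID1A clones (618-10 minus 618-3) they differed by 3.71, 1.62, 2.03, 3.05, 2.63 and 1.98 on the log2 scale. TCEAL8 differed there by 8.07 (adjusted p = 8.87e-36).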

How the data were processed

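Poly-A RNA of 3 libraries each of HAP1 SMARCA4 knockout clones 2878-4 and 2878-6 was compared, beside 3 wild-type libraries. The authors deposited estimated counts per gene, already whole, with a lowest value of 1, and log2 TPM values, quantile-normalized per the labels. Trimmomatic, Bowtie, Picard, DESeq2 and GRCh37 (hg19) are named without versions or roles, per the submitters' processing notes. For the counting tool, its strand setting and its annotation, nothing is stated (not given in the sources used here). Reads of overlapping or near-identical genes (PCDHB, TCEAL, HOX, FNBP1 with GPR107) are therefore uncertain. In the table, 8 columns matched no sample and were not used. Totals were 17794327 to 21945425 counts in the 6 libraries and 14917644 to 29993652 in all 75 libraries of the knockout table. In all 12 libraries of the separate table, which were fitted together with edgeR, they were 9144150 to 19789622. Intervals and floors (3 counts per library) cover counting error only. They use the deposited counts, whose lowest value is 1, and do not cover a possible offset of 1.

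Counts of all 75 libraries in 25 groups were fitted with edgeR 4.0.16 (R 4.3.3; TMM, filterByExpr, robust quasi-likelihood F-tests, Benjamini-Hochberg adjustment over the 16159 genes kept of 35438). Calls needed an adjusted p of at most 0.05 and a log2 fold change of at least 1. The unit CPM was computed from library totals. Each SE of a log2 fold change was its size divided by the square root of the F statistic. For genes with few counts in a group, this SE can be smaller than counting error alone. It was left out for several such genes. DESeq2 1.42.0 and limma 3.58.1 gave alternatives, as did fits without a filter, with 1 subtracted, with a replicate block, with the 6 libraries alone, or without each library. Counts simulated for the comparison of the clones on 16159 genes gave 100 of 100 calls at a log2 change of 1.5, 100 of 100 at 3, and 3 false calls. The changed genes were drawn only from those above a mean of 5 CPM, and the simulated spread followed the fitted trend. Recovery at lower levels, where 190 of the called genes lay in both clones, was not tested. Replicates of a clone differed by more than sampling noise (chi-square per degree of freedom 8.57 to 16.6).

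Named genes were the first 12 called in each direction by fold (at least 5 CPM, no overlap), the first 4 called per list and direction, SMARCA4, SMARCA2, genes at the lowest value in 1 clone and those opposite against wild type (both at 5 CPM or more in the other or higher clone), and 6 shared with the ARID1A clones; others are marked where they appear. Some genes this rule names are not reported here. Members and all 30 gene lists were chosen with earlier results of these data known. A comparison of promoter CG content was void, because too few genes had a window (69.9% of called and 70.9% of tested genes). Promoter sequences and gene order came from RefSeq GRCh38.p14, and Python 3.11.15 (pandas 2.3.3, scipy 1.17.1, matplotlib 3.10.9) was used for summaries and figures.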

Additional observations from a re-analysis of the deposited data

Results flagged for a closer look

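In 3 genes of at least 5 CPM the clones were called in opposite directions against the same wild-type libraries. A call by edgeR in the direct contrast of 2878-6 with 2878-4 was part of their selection. The adjusted p-values of that contrast are therefore no separate test of the opposite pattern. SH2D4A differed by 4.76 (adjusted p = 1.86e-21), with 2878-4 below and 2878-6 above wild type in all 3 libraries each. TAL1 differed by 4.15 (adjusted p = 1.79e-26), and VCAN by 3.99 (adjusted p = 5.98e-16), again with every library of 2878-4 below and every library of 2878-6 above all wild-type libraries.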

How the results depend on the processing

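The split of 172 genes higher in 2878-6 and 127 higher in 2878-4 became 299 and 256 with an adjusted p alone, and 56 and 59 when glmTreat tested against a log2 change of 1. Without 1 library it ranged from 147 to 174 and from 109 to 124. DESeq2's Wald test gave 154 and 112, of which 152 and 111 were shared, and the 6 libraries alone gave 132 and 92, of which 129 and 90 were shared. The ARID1A clones had 203 calls, and 134 with their own 6 libraries alone. The SMARCA4 difference ran from -0.0393 to 0.3433 without 1 library. It was -0.0393 without replicate 3 of 2878-4, and the cause was not tested. Whether replicate numbers pair the samples cannot be settled with 3 libraries per clone. Correlations of same-numbered deviations were 0.248, -0.104 and 0.247. Replicates 1 and 3 were closest to their own number, and replicate 2 was not. A replicate block gave 172 and 126 calls.

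Of 92 called genes followed by name, 69 kept direction and call under all 13 alternatives, 72 kept the call without any single library, and none changed direction. Of the 92, limma on log2 TPM lost 19, the 6 libraries alone 14, DESeq2 6, no filter 5 and subtracting 1 lost 3. DESeq2 called 1 of 37 HOX genes where edgeR called 3, 2 of 69 neural adhesion genes where edgeR called 4, 2 of 44 channel genes where edgeR called 4, 2 of 33 actin genes where edgeR called 1, and 3 of 32 blood-lineage genes where edgeR called 2. Subtracting 1 moved the fitted value of genes near the lowest count by more than 1.5 times. BARX1 went from -3.87 to -4.74 on the log2 scale and FOXF1 from 5.67 to 6.84. These genes are given as count ratios, but the ratios use the deposited counts and so keep the lowest value of 1. The effect of depth on the calls was not tested.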
